A study of Homo sapiens with 12 samples.

Results

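The binding of SOX17 across the genome of TCam-2, a seminoma-like testicular germ cell tumour line, was mapped by ChIP-seq, in which DNA fragments pulled down with an antibody are sequenced and set against input chromatin. All 17507 peaks of the deposited SOX17 list were taken, of 35302 peaks in the series. The list was made from 3 anti-SOX17 libraries of TCam-2 and the line's 3 libraries of 2% input. The other 17795 peaks are those of SOX2 in 2102EP, an embryonal carcinoma-like line, again from 3 anti-SOX2 and 3 input libraries, and they serve only as a point of reference. The 12 libraries thus form 4 groups of 3, described for each antibody as biological replicates. Each immunoprecipitation used 5 µg of antibody on 200 µg of chromatin, and no treatment or genotype is labelled for either line. Antibody and cell line changed together, so a difference between the lists is one between whole experiments, and each factor was studied in a single line. The deposited lists merge the libraries and hold neither values per library nor read totals. Depth is therefore unknown, no value carries a replicate error, and the intervals below are 95% intervals for counting over peaks, which treat peaks as independent although copies of a repeat share their sequence.

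SOX17 is a transcription factor of the SOXF subfamily that binds DNA through an HMG box, which recognises short sites such as CATTGT or CTTTGT. It is known for its roles in definitive endoderm and vascular endothelium, and in humans it is a key regulator of primordial germ cell fate. Seminoma cells keep many features of primordial germ cells, among them SOX17, TFAP2C, PRDM1, NANOG and OCT4 (POU5F1). SOX factors pair with OCT4 on composite sites. In the canonical composite 1 base separates the SOX from the OCT site (ATGCAAAT or ATGCTAAT), and in the compressed composite the OCT site follows directly. The canonical form is known for SOX2 with OCT4 and the compressed form for SOX17 with OCT4.

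Shown first are the SOX17 peaks that carry the pattern on which the results turn, the compressed site. These peaks lie in copies of endogenous retroviruses (ERVs) of the ERV1 family, whose internal parts are named Harlequin-int and HERVIP10FH-int in the deposited repeat annotation. They are nearest to PRMT8 (chr12:3428091-3428196, Harlequin-int) and PDPN (chr1:13569034-13569151, HERVIP10FH-int). All sequences here are the plus strand of hg38 over the whole peak, and capitals mark the compressed site, with a mismatch to the OCT site allowed in 1 position; PDPN holds it on the minus strand.
PRMT8: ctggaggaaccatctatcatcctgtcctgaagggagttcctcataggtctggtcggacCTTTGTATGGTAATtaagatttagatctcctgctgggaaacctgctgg
PDPN: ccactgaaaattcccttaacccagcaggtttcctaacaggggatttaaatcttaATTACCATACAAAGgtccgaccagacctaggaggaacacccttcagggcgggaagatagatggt

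Peaks outside these ERVs held the compressed site in other surroundings. The examples are nearest to BAMBI (chr10:28690445-28690546, no repeat), MIR3139 (chr4:143423231-143423337, no repeat), BMPR1A (chr10:86817398-86817503, in the LINE L1MB3), COL4A1 (chr13:110297225-110297328, in the retroviral repeat MER21B) and NKX2-2 (chr20:21514377-21514481, promoter).
BAMBI: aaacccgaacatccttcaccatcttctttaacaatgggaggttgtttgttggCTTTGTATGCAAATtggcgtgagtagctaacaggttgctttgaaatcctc
MIR3139: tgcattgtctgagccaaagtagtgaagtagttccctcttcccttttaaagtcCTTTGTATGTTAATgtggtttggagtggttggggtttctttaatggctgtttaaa
BMPR1A: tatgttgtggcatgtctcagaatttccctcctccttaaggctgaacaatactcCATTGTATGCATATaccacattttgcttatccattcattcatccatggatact
COL4A1: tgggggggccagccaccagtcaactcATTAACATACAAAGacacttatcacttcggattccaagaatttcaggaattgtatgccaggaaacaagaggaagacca
NKX2-2: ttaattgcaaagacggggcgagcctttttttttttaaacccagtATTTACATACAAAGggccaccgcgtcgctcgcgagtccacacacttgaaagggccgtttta

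Other strong peaks held SOX sites without a composite, which are the capitals in the next set. It shows the SOX5 and PCDH1 peaks, which follow the top peak in the list, the IGF1 promoter, and peaks near the germ cell and pluripotency genes NANOG, KIT, DMRT1 and TFAP2C. They lie at chr12:23757675-23757775, chr5:141816691-141816803, chr12:102478686-102478794, chr12:7785634-7785735, chr4:54668498-54668602, chr9:882521-882624 and chr20:56703425-56703525, in the order of their names. In the IGF1 and TFAP2C peaks CATTGT is directly followed by ATGC, the start of the OCT site, but the bases after it exceed that limit.
SOX5: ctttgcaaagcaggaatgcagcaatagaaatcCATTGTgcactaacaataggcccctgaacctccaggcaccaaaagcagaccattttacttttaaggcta
PCDH1: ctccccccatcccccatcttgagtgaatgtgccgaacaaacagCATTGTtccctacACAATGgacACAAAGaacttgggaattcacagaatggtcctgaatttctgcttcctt
IGF1: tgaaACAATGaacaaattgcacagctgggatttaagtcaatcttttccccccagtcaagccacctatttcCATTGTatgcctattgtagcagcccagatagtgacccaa
NANOG: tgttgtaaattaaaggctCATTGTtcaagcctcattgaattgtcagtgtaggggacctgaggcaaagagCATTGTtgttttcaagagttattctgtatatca
KIT: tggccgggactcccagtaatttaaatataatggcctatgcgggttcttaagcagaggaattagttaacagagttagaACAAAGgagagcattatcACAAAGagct
DMRT1: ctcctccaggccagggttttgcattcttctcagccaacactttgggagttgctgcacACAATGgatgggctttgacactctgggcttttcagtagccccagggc
TFAP2C: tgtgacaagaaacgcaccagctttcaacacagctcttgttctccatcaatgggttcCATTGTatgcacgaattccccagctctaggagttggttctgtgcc

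The list ran from a score of 7.0 to 667.67, with a median of 26.67 and quartiles of 18.0 and 43.33. The score is the authors' own value per peak, on a scale that is not stated, and is used here to rank peaks within the list. A score of 100 was reached by 803 peaks and a score of 200 by 87. Peaks were narrow, with a median width of 122 bp and a 10th to 90th percentile of 105 to 166 bp. Weak peaks were wider than strong ones, with a median width of 132 bp in the lowest score decile and 112 bp in the highest.

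Most SOX17 peaks lay far from promoters. Of all peaks 49.3% were intergenic (48.5 to 50.02%) and 44.03% intronic (43.3 to 44.8%), against 51.0% and 43.5% of the SOX2 peaks. Promoters, as the deposited annotation classes them, held 581 SOX17 peaks (3.32%, 3.06 to 3.59%) and 456 SOX2 peaks (2.56%). The difference of 0.756 percentage points had an interval of 0.404 to 1.11. Of the intronic peaks 33.3% lay in the first intron for SOX17 and 32.3% for SOX2. Exons outside the untranslated regions held 112 SOX17 peaks (0.64%) and 76 SOX2 peaks (0.427%).

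The median SOX17 peak was 36490 bp from the nearest transcription start site (TSS), and the median SOX2 peak 40369 bp. More than 50000 bp separated 7258 SOX17 peaks (41.5%) from any TSS, against 44.3% of the SOX2 peaks, a difference of -2.82 percentage points (-3.86 to -1.79). Downstream of the TSS of the nearest gene lay 54.7% of the SOX17 peaks and upstream 45.3%. Distance bore little on the score. The median was 25.0 within 1000 bp of a TSS, 29.0 between 1000 and 5000 bp, and 26.0 from 50000 to 500000 bp, while the 366 peaks beyond 500000 bp had a median of 22.33. The plot of distances gives the same classes side by side.

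**Figure D1:**
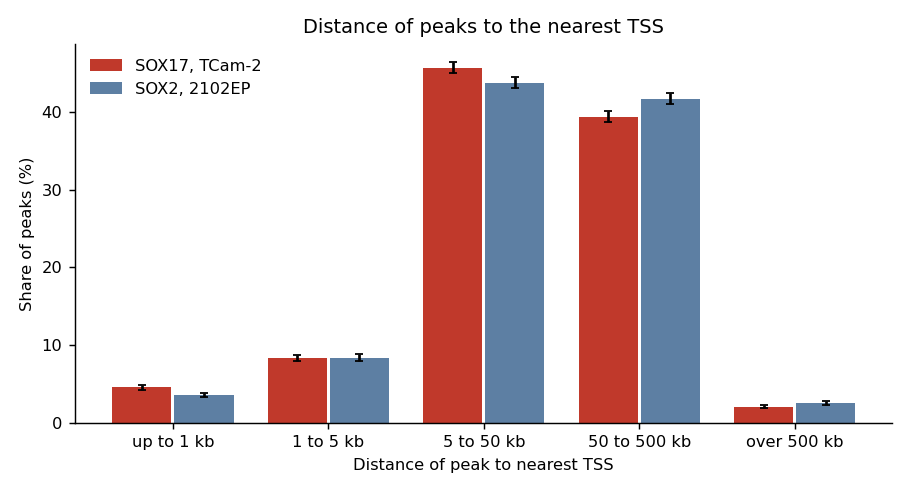
Share of peaks, in percent, by distance to the nearest TSS, for SOX17 in TCam-2 (red) and SOX2 in 2102EP (blue); lines are 95% Wilson intervals. Most peaks of both lists lie between 5 and 500 kb from a TSS, and 4.57% of SOX17 against 3.57% of SOX2 peaks lie within 1 kb.

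The 20 highest scores with different nearest genes included 1 promoter, that of IGF1. The highest score, 667.67, belonged to an intronic peak of the pseudogene BMS1P20 in an MSTA-int repeat, with 18740 bp to its TSS. SOX5, which encodes a SOXD factor, followed with a score of 535.33 and a peak in intron 7, and PCDH1, a protocadherin gene, with 405.33 and a peak 49455 bp downstream of its TSS. ZAP70, a T cell receptor kinase gene, stood at 367.33, TEAD4, encoding a transcription factor of the Hippo pathway, at 346.33, and CPNE8, a copine gene, at 339.0. LINC02450 (325.33), RNF130 (324.67), the collagen genes COL17A1 (319.67) and COL23A1 (314.33), the tubulin gene TUBB (313.33) and ZHX2 (296.67) came next. The order then ran through LINC01210, SCARNA3, IGF1, PUM2, NUAK1, PRMT8, NANOG and MIR4318, with scores from 293.33 to 273.67. A SOX2 peak overlapped those of BMS1P20, SOX5, PCDH1, ZAP70, TEAD4, LINC02450, COL17A1, ZHX2, LINC01210, SCARNA3, PUM2 and MIR4318, but not the others. For SOX5 and PCDH1 the SOX2 peaks stood at percentiles 100 and 99.99 of the SOX2 scores. A nearest gene is an assignment by distance and does not show which gene a site acts on: the MIR4318 peak lay 770340 bp from its TSS.

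Of the 176 peaks in the top 1% (scores of 164.98 or more), 2 were at promoters, 81 lay in repeats (46.0%) and 62 were over 50000 bp from a TSS. Over all SOX17 peaks these shares were 3.32%, 43.1% and 41.5%. A SOX2 peak overlapped 73 of them (41.5%), against 4426 of all SOX17 peaks (25.3%). Chromosome 12 held 32 of the 176, against 897 of all 17507 SOX17 peaks. Of the 32, 18 were on its short arm, taken as the first 35 Mb, which held 279 of all SOX17 peaks (1.59%).

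SOX17 peaks on that arm were denser and had a higher median score than on any whole chromosome; other arms were not computed. It carried 279 peaks, or 7.97 per Mb, with a median score of 40.67, against 31.67 on the rest of chromosome 12 and 26.33 outside the arm. Peaks there include those of SOX5, TEAD4, PRMT8 and NANOG. Chromosome 20 followed with 7.43 peaks per Mb and a median of 36.33. Scores were low on chromosomes 13, 22 and X, with medians of 19.0, 19.67 and 19.67, and 3.56, 3.25 and 4.72 peaks per Mb. On the short arm of chromosome 12 the SOX2 list was also dense, at 8.46 peaks per Mb with a median score of 47.38 on its own scale. Relative to SOX2, SOX17 peaks were most numerous on chromosomes 19 (1.31 SOX17 peaks per SOX2 peak) and 8 (1.29) and least on X (0.725). The plot of scores by chromosome shows the whole distributions.

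**Figure D2:**
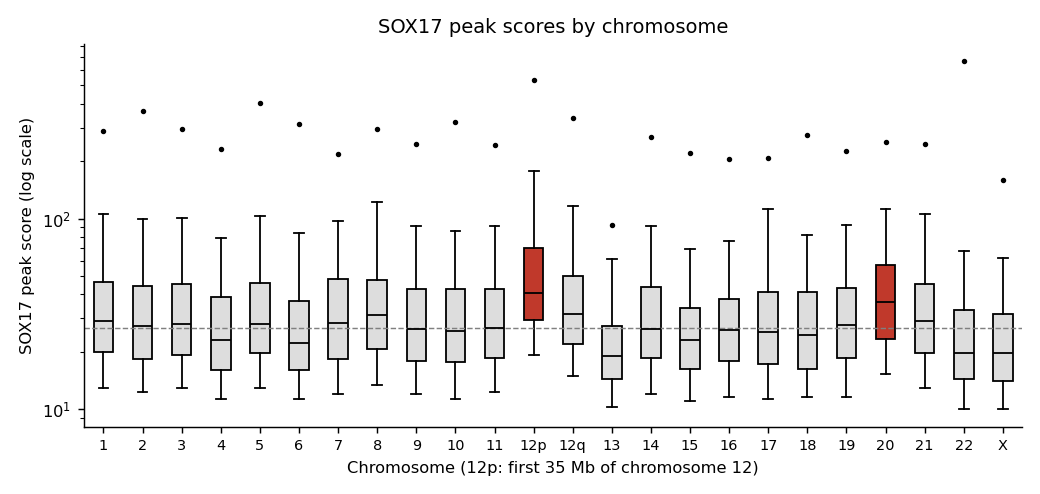
SOX17 peak scores (log scale) by chromosome, with the first 35 Mb of chromosome 12 as 12p and the remainder as 12q. Boxes span the quartiles with the median as a line, whiskers run from the 5th to the 95th percentile, dots are the highest peaks and the dashed line is the median of all peaks, 26.67; 12p and chromosome 20 (red) have medians of 40.67 and 36.33.

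Among promoter peaks, IGF1, the gene of insulin-like growth factor 1, stood far above the others. Its peak scored 282.33 and lay at -89 bp from a TSS (minus is upstream), with no overlapping SOX2 peak. The next were MIR181C, a microRNA gene (188.33, at -427 bp), LOC728715 (164.0), LINC01618 (160.67), the acetoacetyl-CoA synthetase gene AACS (152.67), the phosphodiesterase gene PDE2A and the caspase-8 regulator gene CFLAR (150.0 each), LINC02387 (134.33), REST (130.67), which encodes a repressor of neuronal genes, and IGSF5 (121.67). Of these 10 promoters, those of LOC728715, LINC01618, AACS, CFLAR and REST overlapped a SOX2 peak. PRDM1, encoding the germ cell regulator BLIMP1, had a promoter peak of 117.33 at -236 bp without SOX2 overlap. Its peak sequence held none of the 6 single sites searched (SOX, OCT, AP-2, TEAD, GATA and FOX). Promoter peaks as a group scored slightly below the whole list (median 25.0 against 26.67) and were richer in G and C, with a median of 53.2% within 100 bp of the centre against 44.8% over all peaks.

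At the level of genes, 9780 genes were named as the nearest gene of a SOX17 peak. Among 20033 protein-coding genes of the RefSeq annotation 6714 were named, which is 33.5%. A single peak belonged to 5804 of the 9780 genes, and 20 genes had 10 or more. RBFOX1, a splicing regulator gene, had 18, followed by DMD (dystrophin), LOC100507468 and TMEM114 with 13 each, LRRC4C and SDK1 with 12, and KDM4C, TMTC1, MAF and OPCML with 11. The loci of these 10 genes, taken as the distance between the midpoints to the neighbouring TSSs, ranged from 43010 bp for TMEM114 and 48984.5 bp for MAF to 283306 bp for TMTC1 and 485698 bp for DMD, against a median of 35474 bp over protein-coding genes. Close runs were rare. Joining peaks within 10000 bp of each other gave 56 runs of 3 or more peaks, with at most 4 in a run, and the 5 runs of 4 lay at CHST11 with MIR3922, SLC25A4, TNS3, KCMF1 and LINC01387.

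SOX17 peaks named 3549 genes that the SOX2 list did not name, 36.3% of all genes named for SOX17. Over all protein-coding genes 12.6% were of this kind, and of the 6714 protein-coding genes named for SOX17 it was 2522. A gene missing from the merged SOX2 list is not thereby shown to lack SOX2, and the lines differ as well. These genes mostly had 1 peak (78.2%, against 48.6% of the 6231 genes named in both lists). Their best peaks stood at a median percentile of 49.1 against 68.4. A best peak is the highest of a gene's peaks, so a gene with more peaks tends to have a higher one. Of the 4545 SOX17 peaks of these genes, 11 overlapped a SOX2 peak that was assigned to another gene. So low an overlap follows from choosing genes to which no SOX2 peak was assigned. The nearest SOX2 peak was a median of 97316 bp from the best SOX17 peak, and within 50000 bp for 860 of the genes (24.2%). These distances depend on the same choice.

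Headed by score, these genes were ZNF511 (247.33), MIR646 and PTPN5 (233.33 each), RNU105C (229.33), MIR4999 (226.33), XRCC5 (213.0), LINC01381 (209.0), CNGB1 (205.67), MIR3116-2, with the next lower score, and AQP6 (195.67), then LINC00208, EIF2S2, MIR181C, GET4 and PLOD1, the last at 183.33. PTPN5 encodes a tyrosine phosphatase, XRCC5 the Ku80 subunit of DNA end joining, CNGB1 a subunit of the rod photoreceptor channel, AQP6 an aquaporin, EIF2S2 a translation initiation factor subunit and PLOD1 a collagen lysyl hydroxylase. The PTPN5 peak lay in HERV17-int, the MIR4999 peak in HERV9NC-int and the EIF2S2 peak in HERV9N-int, all of ERV1. PTPN5, MIR4999, RNU105C and LINC00208 had a compressed site in the peak of highest score.

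Genes of germ cells were among those with the strongest peaks. In a list of 34 germ cell and seminoma genes 23 were named (67.6%, against 33.5% of protein-coding genes). Their best peaks stood at a median percentile of 91.9, against 61.5 over named protein-coding genes. The 23 genes had 73 peaks, against 11765 for the 6714 named protein-coding genes, and a best peak tends to rise with peak number. Loci in the list were larger, with a median of 75000 bp against 35474 bp over protein-coding genes. The SOX2 list named 21 of these 34 genes, and 6316 of the 20033 protein-coding genes. From the lists below it named 28 of 29 pluripotency, 14 of 30 endoderm and 23 of 36 Nodal, activin and BMP genes. It also named 27 of 35 FGF and ERK, 22 of 37 WNT and 17 of 25 Hippo genes. Counts above the protein-coding share were thus not particular to SOX17. The lists used here were drawn up with earlier results of these data known, so their counts are a description.

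TFCP2L1, a pluripotency and germ cell factor gene, had 5 peaks, the highest at 176.67 in an L1MB3 repeat. PRDM14, whose product acts in germ cell specification, had 5 peaks with scores of 264.33, 92.0, 90, 39.33 and 30.0, of which 4 overlapped a SOX2 peak. DND1, encoding an RNA-binding protein needed for germ cell survival, had 1 peak of 155.67 in intron 3, which overlapped a SOX2 peak. DMRT1, a testis and germ cell regulator gene, had peaks of 154.0, 28.0, 25.0 and 18.67, none of them overlapping a SOX2 peak. KIT, the receptor for stem cell factor, had an intron 1 peak of 147.0 and a second peak of 23, and TFAP2C, which encodes AP-2 gamma, had peaks of 145.33, 97.33, 40, 33.0 and 30.67. DMRT1 and KIT thus each had a leading peak far above their others, while the leading TFAP2C pair lay closer together.

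PRDM1 had 8 peaks, of which the promoter peak and a peak of 85.0 led and the other 6 ran from 13.67 to 36.0. Of the 8, 3 overlapped a SOX2 peak, among them that of 85.0. CXCR4, the chemokine receptor of migrating germ cells, had 6 peaks from 21.0 to 115.33. The seminoma surface marker PDPN (podoplanin) had 1 peak of 109.33 in a HERVIP10FH-int copy. ALPL, an alkaline phosphatase gene, had peaks of 92.33, 36.0 and 26.67. UTF1, a pluripotency-linked gene, had 1 peak of 57.33 and SOX15, a SOX gene of human germ cells, 1 of 56.67. Both overlapped SOX2 peaks. Lower scores were found for TCL1A (37.0), CD38 (43.0 and 9.67), NANOS3 (21.0 and 17.67) and TFAP2A (20.67, at its promoter). NANOS2, DDX4, DPPA3, PIWIL1, PIWIL2, ALPP, PRAME, MAGEA4, SYCP3, MAEL and RHOXF1 were not named in the list analysed. Of the 23 named genes, 4 were not named for SOX2 (TFAP2A, NANOS3, CD38 and TCL1B). That is a smaller share than over named protein-coding genes (2522 of 6714).

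Pluripotency genes were named in 23 of 29 cases (79.3%, median percentile 89.6). All 23 were also named for SOX2, as were 6231 of the 9780 genes named for SOX17. The leading members were NANOG (274.33), PRDM14, TBX3 (258.0), DPPA5 (210.0) and TFCP2L1. NANOG, a homeobox factor of pluripotent and germ cells, had its only peak at -3712 bp from the TSS. DPPA5 had a second peak of 36.33, and DPPA4 a pair of 49.67 and 31.0, both overlapping SOX2 peaks. TDGF1 (82.67) and LIN28A (64.33), encoding a Nodal co-receptor and an inhibitor of let-7 processing, were bound at the promoter, at 3 and -38 bp from the TSS. Both of these promoter peaks overlapped SOX2 peaks. POU5F1, LIN28B, GDF3, DNMT3B, MYCN and FOXD3 were not named in the SOX17 list analysed.

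The gene SOX17 itself had 1 peak, of score 32.0 and at -56899 bp from its TSS, and the gene SOX2 had 1 of 29.67. In the SOX family 12 of 20 genes were named (60%, median percentile 57.4). After SOX5 the highest were SOX15, at the promoter with 56.67, SOX6, also at a promoter with 42.67, and SOX13 with 39.67.

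Endoderm genes were named in 18 of 30 cases (60%, median percentile 80.0). Of the 18, 7 were not named for SOX2, close to the share over named protein-coding genes (2522 of 6714). Those 7 were GATA4 (87.67), GSC (71.0), COL4A1 (91.33), COL4A2 (15.67), LAMC1 (54.67), FOXA1 (14.33) and SOX7 (22.0). COL4A1, COL4A2 and LAMC1 encode chains of the basement membrane proteins collagen IV and laminin, and GATA4, GSC and FOXA1 are regulators of endoderm or the organizer. GATA6, another endoderm regulator gene, had 4 SOX17 peaks from 15.33 to 45.67, none of which overlapped a SOX2 peak, and EOMES 3 from 30.33 to 65.33, of which the higher pair did. SPARC (78.0) also ranked high. FOXA2, FOXA3, HNF4A, CER1, MIXL1 and PDGFRA were not named in the list analysed.

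Of the Nodal, activin and BMP genes 25 of 36 were named (69.4%, median percentile 71.5). ACVR1, an activin and BMP receptor gene, had 225.0, BMPR1A, a BMP receptor gene, 175.33, and the pseudoreceptor gene BAMBI 143.67. BMPR1B, encoding another BMP receptor, had 7 SOX17 peaks with a best score of 102.33 and was not named for SOX2. SMAD1 (15.67), SMAD9 (22.0, in HERV17-int) and NOG (18.67) were not named for SOX2 either. These 4 of 25 named genes are a smaller share than over named protein-coding genes (2522 of 6714). Next after BMPR1B by score came the inhibitory SMAD7 (98.33) and the BMP target ID1 (97.67). The receptor genes BMPR2 (29.33) and ACVR2A (12.67) scored low, and ACVR1B, ACVR1C and ACVR2B were not named in the list analysed. The ligand genes named ran from 13.0 for BMP2 and 19.0 for NODAL, at its promoter, to 42.33 for the activin subunit gene INHBB.

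FGF and ERK signalling genes were named in 25 of 35 cases (71.4%, median percentile 87.5). FGF13 (147.33), the ERK phosphatase gene DUSP6 (97.67) and ETV1 (96.33) were among those with the highest peaks. WNT genes were named in 25 of 37 cases (67.6%, median percentile 64.6). RSPO3, an R-spondin gene, led with 105.67, followed by WNT2 (98.33), DKK1 (91.0), SFRP2 (72.33) and TCF7L2 (66.33). Of the 25 named WNT genes, 6 were not named for SOX2 (WNT2, DKK1, DKK3, FZD6, LRP6 and LGR5). That is a smaller share than over named protein-coding genes (2522 of 6714). In the Hippo list 19 of 25 genes were named (76.0%, median percentile 71.8), led by TEAD4, AMOT (97.67), ANKRD1 (74.0), YAP1 (73.33, at a promoter) and VGLL4 (58.0).

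Endothelial and Notch genes were named in 15 of 30 cases (50%, median percentile 54.4). VWF, von Willebrand factor, had a score of 186.0 and lies on the short arm of chromosome 12; CDH5 (90.33), TIE1 (77.33), EPHB4 (61.0) and NRP1 (51.67) followed. Lists of other tissues gave lower counts. Haematopoietic genes were named in 13 of 30 cases (43.3%, median percentile 53.0), led by CD34 (129.67), MPO and RUNX1. Neuroectoderm genes were named in 9 of 30 (30.0%, median percentile 50.7), led by NR2F2 with 9 peaks and a best score of 137.33, NES and PAX7. Muscle genes were named in 7 of 30 (23.3%, median percentile 53.7), led by CASQ2, NEB and TNNI1. Housekeeping genes were named in 10 of 30 (33.3%), with TUBB, TFRC, EEF1A1, YWHAZ and EEF2 at their head. The median percentile of these 10 was 82.6, above that of the endoderm, Hippo, Nodal and BMP, and WNT genes and below that of the germ cell, pluripotency, and FGF and ERK genes. Median locus sizes were 34373 bp for the neuroectoderm, 29948 bp for the haematopoietic and 24984 bp for the housekeeping list, below the sizes of the signalling lists (54030 to 69160 bp), while the pluripotency list, with the highest share, had a median of 40514 bp. The part of locus size in the counts was not tested.

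**Figure D3:**
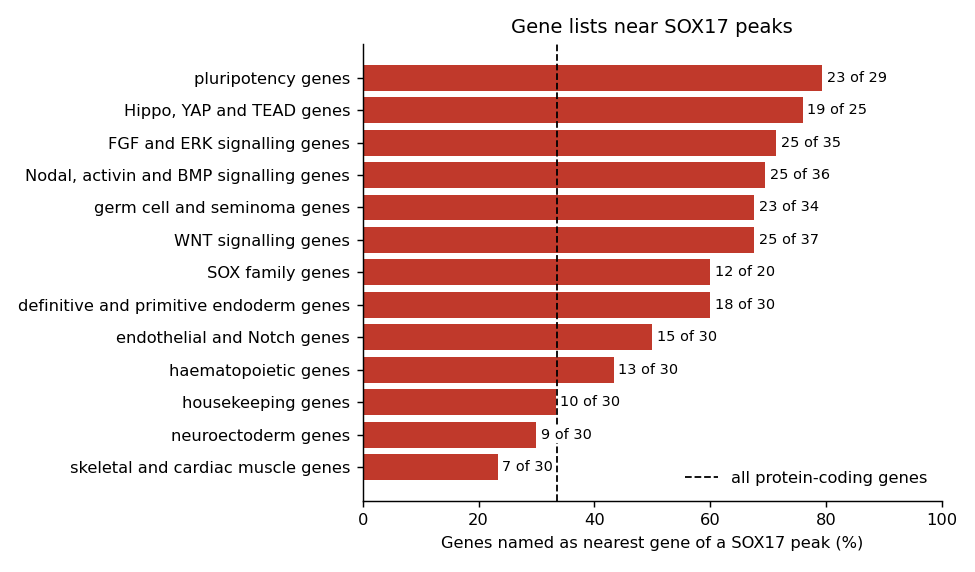
Share of the genes of 13 lists that were named as nearest gene of a SOX17 peak, in percent; labels give the number named of the number in the list. The dashed line is the share over all protein-coding genes, 33.5%. The lists range from 23.3% (muscle) to 79.3% (pluripotency), and counts for the SOX2 list are not drawn.

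Repeats were a large part of the SOX17 list, as of the SOX2 list. The share of the genome in repeats and the copy numbers of elements were not counted, so no excess is shown. A repeat was annotated at 7547 peaks (43.1%, 42.4 to 43.8%), against 41.4% of the SOX2 peaks, and repeat peaks scored about as high as others (medians 26.33 and 27.0). Retroviral LTR elements made up 3956 SOX17 peaks (22.6%) and 4537 SOX2 peaks (25.5%), LINEs 2069 (11.8%) and 1583 (8.9%), and SVA elements 326 (1.86%) and 169 (0.95%). The sources used here do not say how reads with several map positions were placed, which bears on peaks in young repeats.

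Within the LTR elements the names differed between the lists. ERV1 held 1570 SOX17 and 2543 SOX2 peaks, while ERVL-MaLR held 1203 and 849. The THE1B-int element had 294 SOX17 and 108 SOX2 peaks, MER4A1 210 and 49, MER21B 174 and 39, HERV17-int 89 and 10, and MER9a1 51 and 6. The reverse was seen for LTR7, the LTR of HERVH, with 111 SOX17 and 413 SOX2 peaks. LTR5_Hs, the LTR of the youngest HERVK group, was high in both, with 234 and 206 peaks. Among the names with at least 25 SOX17 peaks, the median score was 83.67 for HERV9N-int, 81.33 for HERV17-int, 64.0 for Harlequin-int, 58.2 for HERVIP10FH-int and 47.5 for LTR5_Hs, against 23 for THE1B-int and 21.0 for LTR7.

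SOX sites were present in most SOX17 peaks. Within 100 bp of the centre, on either strand, 67.1% of peaks held CATTGT or CTTTGT (66.4 to 67.8%), against 24.8% of windows of the same width 2000 bp to either side; in SOX2 peaks the share was 60.5%. CATTGT lay in 44.4% of SOX17 peaks and 11.1% of flanking windows, CTTTGT in 34.1% and 15.4%. A pair of SOX sites was found in 17.8% and 3 or more in 3.62% of the SOX17 peaks, and 32.9% held none. The median score was 25.33 with no site, 26.67 with 1, 29.33 with 2 and 33.33 with 4 or more. By score decile the share with a SOX site was 64.2% in the lowest and 74.5% in the highest.

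Sites for possible partners differed in frequency. The AP-2 site, GCCNNNGGC, lay in 11.9% of SOX17 peaks (11.4 to 12.4%), against 3.72% of their flanking windows and 6.42% of SOX2 peaks. TFAP2C, an AP-2 factor, is expressed in seminoma and primordial germ cells. At promoter peaks the AP-2 share was 19.3%, against 5.08% of the windows flanking them. The fixed bases of this site are all G or C. Median GC content was 53.2% at promoter peaks, 44.8% over all SOX17 peaks, 42.3% in their flanking windows and 43.8% in SOX2 peaks. The part of base composition in the AP-2 shares was not tested. The TEAD site, GGAATG, lay in 21.7% of SOX17 peaks, 10.9% of flanking windows and 18.3% of SOX2 peaks. The OCT site without mismatch was less frequent in SOX17 than in SOX2 peaks, at 11.5% and 15.1%, with 2.43% of the windows flanking the SOX17 peaks. The FOX site, TGTTTAC, was found in 4.89% of SOX17 peaks and 2.98% of flanking windows, and the GATA site, AGATAA, in 12.4% of SOX17 peaks and 13.6% of flanking windows. These are matches to letters and do not show that a factor was bound.

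In repeats the OCT sites were concentrated in a few names. Of the SOX17 peaks in repeats 16.4% held an OCT site, against 7.69% outside them. The share was 68.0% in THE1B-int, 63.0% in MSTA-int, 64.9% in MER21B and 73.2% in MER41B. SOX sites were present in 95.9% of the THE1B-int and 89.5% of the MSTA-int peaks but in 32.8% of the MER21B and 30.5% of the MER41B peaks. TEAD sites lay in 93.3% of LTR7B, 77.5% of LTR7 and 44.02% of LTR5_Hs peaks, and GATA sites in 55.6% of SVA_D and 45.7% of MER4A1 peaks. Copies of 1 element share descent, so these shares describe elements rather than independent peaks.

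SOX sites and composites were concentrated near the peak centres. SOX sites were densest 10 bp from the centre, towards higher coordinates, with 137 sites per 1000 peaks in a bin of 10 bp and 117 at the centre. The median position within 60 bp was 6.5 bp to that side for sites on either strand in SOX17 peaks, and 4.5 bp in SOX2 peaks. The same side was favoured whichever way the site pointed. Compressed sites were densest in the same bin, with 10.7 per 1000 peaks, and 73.8% of the peaks holding one had it within 20 bp of the centre. The plot of positions shows the profiles, with AP-2 and TEAD sites raised over a broader span and GATA sites not raised at the centre (5.94 per 1000 peaks there and 7.37 at -300 bp).

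**Figure D4:**
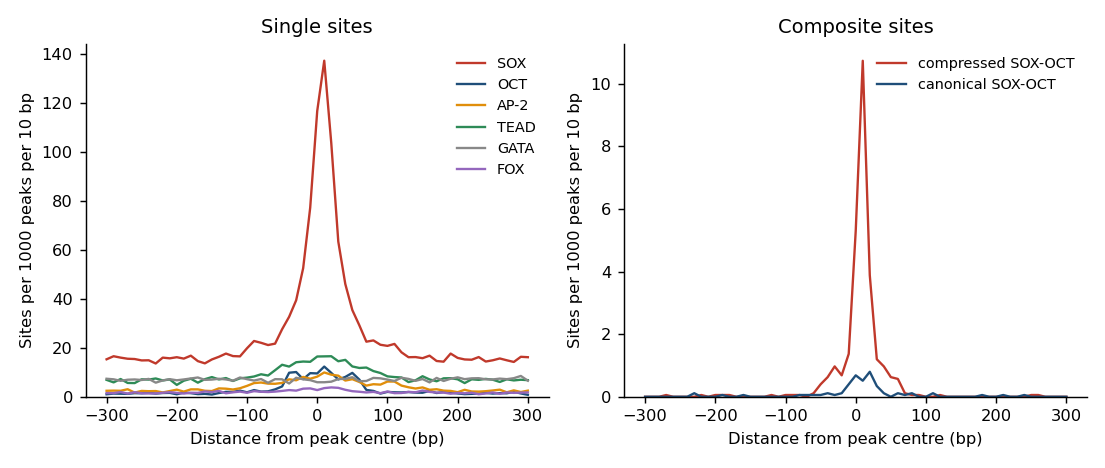
Number of sites per 1000 SOX17 peaks in bins of 10 bp (vertical axis) against distance from the peak centre in bp along the genome (horizontal axis), for 6 single sites (left) and both SOX-OCT composites (right). SOX sites reach 137 per 1000 peaks and compressed sites 10.7, both in the bin at 10 bp; the 2 panels have different vertical scales.

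The compressed SOX-OCT site was far more frequent in SOX17 than in SOX2 peaks. With 1 mismatch allowed in the OCT part it lay in 485 SOX17 peaks (2.77%, 2.54 to 3.02%), against 0.0314% of flanking windows and 14 SOX2 peaks (0.0787%, 0.0469 to 0.132%). The canonical site was in 64 SOX17 peaks (0.366%, 0.286 to 0.467%) and 295 SOX2 peaks (1.66%). Spacings of 2 to 10 bases were found in 13 to 66 SOX17 peaks each.

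The compressed site went with high scores. It was found in 0.971% of the lowest score decile (17 peaks) and in 9.37% of the highest (164 peaks). The 485 peaks had a median score of 49.67 against 26.67 over the list. Of the 10 highest with different nearest genes, CPNE8 (339.0), PTPN5 (233.33), TMEM87B (218.33) and CYP4A22 (214.0) lay in HERV17-int, PRMT8 (275.0) in Harlequin-int, FAR2 (235.67) in HERV9N-int and MIR4999 (226.33) in HERV9NC-int. C1orf131 (242.0) lay in MER41B, and RNU105C (229.33) and MIR3139 (207.67) in no repeat. The canonical site showed no such rise, with 6 peaks in the lowest and 5 in the highest decile, and its leading peaks were those of LINC02217 (140.0), SMARCA2 (121.67), MIR9-2 (110.67), CRX (110.33) and CDH4 (89.67).

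**Figure D5:**
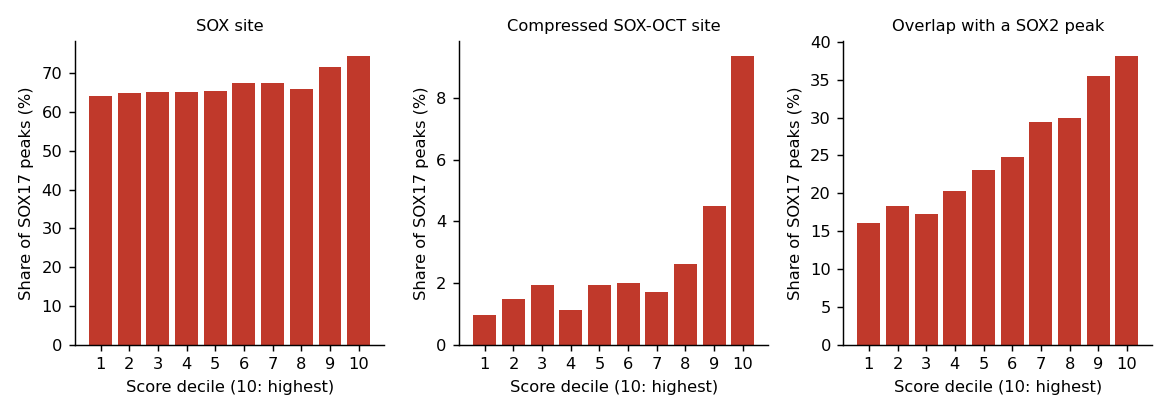
Share of SOX17 peaks, in percent, with a SOX site, with a compressed SOX-OCT site and overlapping a SOX2 peak, by decile of the peak score (10 is the highest). The compressed site is in 0.971% of the lowest and 9.37% of the highest decile, the SOX site in 64.2% and 74.5%, and the overlap is 16.1% and 38.1%.

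The retroviral interiors carried 1 form of this site. In 6 names of ERV1 interiors (HERV17-int, Harlequin-int, HERVIP10FH-int, HERV9N-int, HERV9NC-int and HERV9-int) 182 of 231 SOX17 peaks held a compressed site, which is 37.5% of all 485. The SOX2 list had 36 peaks in these names. The share was 77.5% in HERV17-int (69 of 89), 86.8% in Harlequin-int (33 of 38), 73.7% in HERVIP10FH-int (28 of 38) and 77.1% in HERV9N-int (27 of 35). In 179 of the 182 peaks the OCT part read ATGGTAAT, with G in place of C as the fourth base, and all but 1 of the 182 had CTTTGT as the SOX part. Outside repeats ATGGTAAT occurred in 6 of 179 compressed sites.

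Beyond the site, copies of HERV17-int, Harlequin-int and HERVIP10FH-int were close to a common sequence of all these names, and the HERV9 copies less so. Over the 20 bases on each side of the site, aligned without gaps, the 182 windows were identical to their common sequence at a median of 90% of positions. The median was 95% for HERV17-int (69 peaks), 92.5% for Harlequin-int (33) and 88.8% for HERVIP10FH-int (28). It was 57.5% for HERV9N-int (27) and HERV9NC-int (17) and 62.5% for HERV9-int (8). For compressed sites outside repeats the median was 27.5%. HERV17-int, Harlequin-int and HERVIP10FH-int gave most of the 182 windows behind the common sequence. The values therefore do not measure likeness among the HERV9 copies or among sites outside repeats. Including the site, 161 of the 182 windows of 54 bases were distinct. The compressed site in these names came with a median score of 77.67, against 34.33 for the other compressed sites, and 103 of the 164 compressed peaks of the highest decile lay in them.

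Outside repeats the compressed site remained in 179 peaks (1.8%, 1.55 to 2.08%), with a median score of 37.0. There the OCT part varied: ATGCAAAT was the most frequent and was found in 18, and the SOX part was CATTGT in 104 and CTTTGT in 75. In the highest score decile 40 of 984 peaks outside repeats held it (4.07%), against 7 of 932 in the lowest (0.751%). Over all 485 sites, in repeats or not, the OCT part matched its consensus in 99.8% of peaks at the fifth base. There A or T counted as a match. The match was 98.1% at the second base and 48.5% at the fourth. High matches follow from the search, which allowed 1 mismatch. ATGGTAAT, which departs at the fourth base, made up 191 of the 485 sites, and 179 of these lay in the ERV1 interiors named above.

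Peaks with a compressed site seldom overlapped SOX2 peaks. This was so for 12 of 485 (2.47%), against 25.3% of all SOX17 peaks, while 51 of the 64 peaks with a canonical site overlapped one. Of the compressed peaks 42.5% were over 50000 bp from a TSS, against 41.5% of all SOX17 peaks, and 8 were at promoters. They named 469 genes, 141 of which the SOX2 list did not name. That is a smaller share than the 36.3% over all genes named for SOX17. Among genes of the lists the site lay in the leading peaks of BAMBI, PDPN, RSPO3, ETV1, COL4A1 and NKX2-2 and in lesser peaks of BMPR1A (128.0), KLF4 (36.0), SPRED2 (34.33), KIT (23) and BMPR1B (15.33). A pair of PRDM14 peaks (39.33 and 30.0) held the canonical site, and both overlapped SOX2 peaks.

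A further form, chosen after seeing the data, had the mismatch in the SOX part and none in the OCT part. It was counted after the MER21B peak of TEAD4 (chr12:2988544-2988648) was seen to hold no SOX site, and capitals mark it there.
TEAD4: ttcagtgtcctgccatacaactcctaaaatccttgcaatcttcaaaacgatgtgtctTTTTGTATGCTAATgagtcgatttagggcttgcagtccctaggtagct
This form lay in 326 SOX17 peaks (1.86%, 1.67 to 2.07%), 0.0343% of flanking windows and 40 SOX2 peaks (0.225%). In MER21B it was found in 105 of 174 SOX17 peaks (60.3%), in MER41B in 52 of 82 (63.4%) and in MER21C in 30 of 86 (34.9%). In SOX2 peaks the counts were 17 of 39 for MER21B, 1 of 18 for MER41B and 5 of 134 for MER21C. Both forms of the compressed site together covered 771 SOX17 peaks (4.4%), 218 of them in the highest score decile.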

How the data were processed

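Reads were single-end, 75 bp long and planned at 25 M per library; they were aligned to hg38 in CLC Genomics Workbench 12 and processed in HOMER, per the labels and the series' design text. Sources used here do not give the calling settings or the use of input. One merged, annotated peak list per factor was deposited by the authors, with a peak score whose scale is not stated. Tripled, scores were whole (tolerance 0.02) for 100% of SOX17 but 8.68% of SOX2 peaks, so none was compared across lists. Start, end and distance to TSS, in bp, are the authors' deposited values. Of each list 2 lines arrived empty, and 27 SOX17 peaks had no gene.

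Peaks overlapping by 1 bp were called shared. Genes were matched by number to RefSeq GRCh38.p14 (9755 of 9780); locus sizes, the distance between the midpoints to the TSSs on either side, came from GENCODE 44. Motifs were sought on both strands of hg38 within 100 bp of peak centres and in equal windows 2000 bp away. Shares have 95% Wilson and differences 95% Newcombe intervals. Counting steps were tested on simulated data. The planned comparison of ChIP with input needs values per library and was not run.

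Members and lists were chosen with earlier results of these data known. Named are the 20 highest scores, 10 promoters, 15 genes absent for SOX2, 10 genes with most peaks, 5 leading members per list, 10 compressed and 5 canonical peaks, 5 runs and 30 preset genes; other list members were named after their values were seen. Alternatives were other overlap, distance, window, mismatch and join limits, higher-scoring peaks and peaks outside repeats. Some leading items are not reported here.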

Additional observations from a re-analysis of the deposited data

How the results depend on the processing

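Of 58 alternative values for 28 results, 28 stayed within the limits set (1.5 times for counts, the counting interval for shares) and 30 moved. Restricting to peaks at or above the median score gave 3.05% at promoters, 39.6% over 50000 bp from a TSS, 42.3% in repeats, 22.0% overlapping a SOX2 peak (both lists restricted) and 1772 genes named for SOX17 but not SOX2; it left 16 WNT, 5 neuroectoderm, 7 haematopoietic and 4 muscle genes. The other 9 of 13 gene lists stayed within the limits here and within 50000 bp of a TSS. Counting peaks within 1000 bp of a TSS gave 4.57% at promoters. The SOX2 overlap was 23.9% when 50% of each peak had to be shared and 26.9% for centres within 1000 bp. Outside repeats the promoter share was 5.83%, the SOX share 65.6% and the compressed share 1.8%. Within 50 bp of the centre the SOX share was 57.5%. Without a mismatch the compressed site was in 0.228% and the canonical in 0.0800% of peaks; with the mismatch in the SOX part, chosen after seeing the data, they were in 1.86% and 0.531%. Joining peaks within 5000 bp left 0 runs of 3. The cause of these shifts was not tested. No paired analysis was possible because each list is a merge without a column for any single library, and for that reason leaving out single replicates and testing ChIP against input were not run.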
